A study of Mus musculus with 24 samples.

Results

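Unstimulated Th2 cells were set against naive CD4+ T cells on 2 of the 24 dual-colour arrays of the series, the array of cells given DMSO as vehicle and the array of cells given 50 nM JQ1. These arrays were chosen by their labels, as the unstimulated Th2 cells with DMSO and with the lower dose of JQ1, a compound that blocks the bromodomains of BET proteins. Both channels came from female C57BL/6 mice. The Cy3 channel held Th2 cells differentiated in vitro, for 13 days by the methods of the study, and the Cy5 channel held naive CD4+ T cells from lymph node and spleen, sorted as CD25- and CD44lo among other markers. JQ1 was given for 6 hr. The DMSO array was labelled 24 hr in its title and 6 hr in its source name, so its treatment time is not known. Each condition had 1 array, with no dye swap, so a gene that favours either dye cannot be told apart from a gene that differs between the cells. The sources do not say how many mice gave the RNA.

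Th2 cells are the CD4+ T cells that direct responses to parasites and take part in allergy. They arise when a naive cell is activated in the presence of IL-4, which acts through Stat6 to raise the transcription factor Gata3, and they secrete IL-4, IL-5 and IL-13 when restimulated. Naive cells are small and do not divide. They circulate through lymph nodes with the help of Ccr7, and Tcf7, Lef1, Klf2 and Foxo1 maintain their state.

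Values below are log2 ratios of Th2 (Cy3) over naive (Cy5) signal, DMSO array first, so 1 is a 2-fold higher and -1 a 2-fold lower signal. A gene was represented by its brightest probe and entered if that probe was well above background in the same channel on both arrays, which 12552 of 20028 genes were. Where only the Th2 or only the naive channel was above background, the fold is a lower bound, written as at least. In place of a replicate error, 2 yardsticks were used. The Cy5 signals of the same reference differed between arrays with a median SD of 0.18 over 276 pairs of arrays, and the ratios of the DMSO and 50 nM JQ1 arrays differed with an SD of 0.22 over all genes that entered. The cells given 50 nM JQ1 are a check on the DMSO values and not a replicate of them.

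The DMSO array placed 1566 genes at least 2-fold higher in Th2 than in naive cells, 12.5% of those that entered, and 714 genes at least 2-fold lower, 5.69%. The median over all genes was 0.07. Larger differences were mostly upward, with 255 genes at least 8-fold higher and 23 at least 8-fold lower. This split depends on the scaling. With values centred on the median of each array, 1080 genes were higher and 1934 lower, and the median of all genes moved to -0.28. With loess values shifted so that the spike-in controls read 0, 2662 were higher and 354 lower, and the median moved to 0.42. With spike-in centring alone, 4827 were higher and 218 lower, and the median moved to 0.83. The ratio at which the spike-in mixes were added is not given in the sources used here. Directions below are therefore relative to the bulk of genes on the array.

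The 50 nM JQ1 array placed 1532 genes (12.2%) at least 2-fold higher and 880 (7.01%) at least 2-fold lower. Past 2-fold on both arrays were 1353 genes upward, 10.8%, and 632 downward, 5.04%. These were 86.4% of the genes higher with DMSO and 88.3% of those higher with 50 nM JQ1. Downward they were 88.5% of the DMSO list and 71.8% of the JQ1 list. No gene was past 2-fold in opposite directions, and 26 genes differed by 2-fold or more between the arrays. A limma fit of the mean of both arrays against 0 called 4824 genes higher (38.4%) and 3792 lower (30.2%) at an adjusted p below 0.05. That fit has 1 residual degree of freedom and takes its spread from cells of different treatment, and the smallest difference it called was 0.22, so the fold is the more telling value. Its balance also turned with the scaling, to 2379 higher and 6752 lower with median centring and to 9934 and 1065 with spike-in centring. Some genes passed the filter through 1 channel alone, which favours a higher value in that channel. With only genes above background in both channels, 4257 were called higher and 3584 lower. Past 2-fold with DMSO there were then 1295 higher and 682 lower. Both arrays share the description of their reference, and they lay on different slides.

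**Figure D1:**
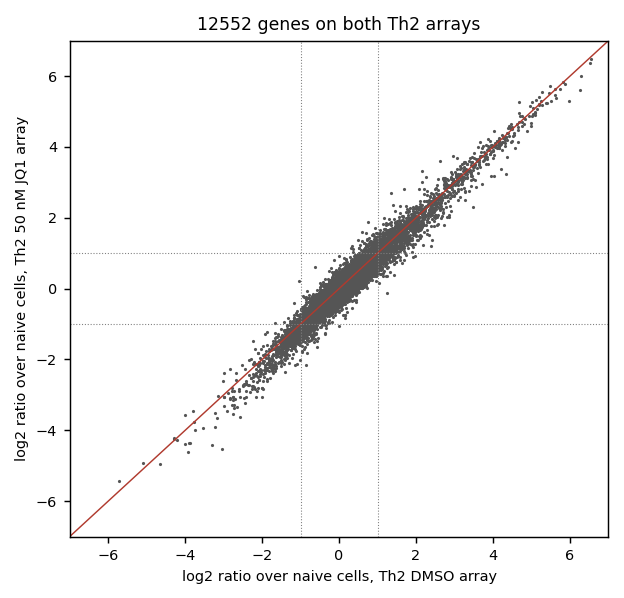
Each point is 1 of 12552 genes, with the log2 ratio over naive cells on the DMSO array (x axis) and on the 50 nM JQ1 array (y axis). Dotted lines mark 2-fold and the solid line marks equal values. The points follow the line of equal values, and 26 genes lie 2-fold or more from it.

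Il4, Gata3 and 5 genes of the receptor list were higher in Th2 than in naive cells. Several other genes linked to the lineage stayed under 2-fold or were not well above background. Il4, the signature cytokine of the lineage, had log2 ratios of 3.52 and 3.08. Its naive signal was not well above background, so its level was at least 10.3-fold higher with DMSO and at least 7.65-fold higher with 50 nM JQ1. On the Th1 arrays, DMSO then 50 nM JQ1, Il4 read 0.12 and 0.10. Il4 was the only member of the 11-gene cytokine list past 2-fold on both arrays. Il13 was above background in the DMSO Th2 channel alone, at least 1.98-fold higher, and read 1.07 and 0.36. Il5, Il10, Il6 and Il31 were not well above background in either channel of either array. Areg, an epidermal growth factor family ligand, was at least 1.78-fold and at least 1.98-fold higher, and read 0.83 and 0.99 against 2.24 and 2.61 in Th1 cells.

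The Il4 promoter is shown because Il4 was the cytokine that stood apart. Its 250 bases before the start are chr11:53618666-53618915 of GRCm38.p6, minus strand, from the RefSeq promoter table. Capitals mark GGAAA, the core of the NFAT site, on either strand.
Il4: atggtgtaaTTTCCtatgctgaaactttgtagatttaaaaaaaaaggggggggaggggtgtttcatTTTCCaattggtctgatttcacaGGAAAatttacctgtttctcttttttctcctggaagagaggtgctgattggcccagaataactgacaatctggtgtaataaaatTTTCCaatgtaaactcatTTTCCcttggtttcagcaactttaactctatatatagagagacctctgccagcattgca
The window held 5 matches. Of the promoters of 27025 genes, 55.6% held at least 1 match in the same window, as did 8 of the 9 cytokine list members found in the table. A core this short is common, and a match is not a binding site.

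Among 22 transcription factors and other regulators linked to Th2 cells, 21 entered, with a median of 0.12. With DMSO 7 were at least 2-fold higher and 3 at least 2-fold lower, against 12.5% and 5.69% of all genes. Gata3, the factor that specifies the lineage, read 1.95 and 1.61. On the Th1 arrays it read -0.52 and -0.76, below the naive level. The highest member was Nfil3, a basic leucine zipper factor, at 4.68 and 4.70, and it was as high in Th1 cells at 4.89 and 4.71. Bhlhe40 was at least 9.18-fold higher with DMSO and read 2.83 with 50 nM JQ1, and Irf4, which is induced by antigen receptor signals, 1.93 and 1.51. Both were higher still in Th1 cells, where Irf4 read 3.55 with DMSO. Pparg, a nuclear receptor, read 1.91 and 1.23 against 0.30 and 0.25 in Th1 cells. The members lower than in naive cells were Stat6 at -1.08 and -1.07, Ikzf1 at -1.07 and -1.37 and Zfp36, which promotes mRNA decay, at -1.29 and -1.41. Maf, an activator of Il4, stayed under 2-fold at 0.94 and 0.68.

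Of 17 receptors and other surface-linked genes, 15 entered, 5 were at least 2-fold higher on both arrays and none was 2-fold lower. Of all genes 10.8% were higher and 5.04% lower on both arrays. Il2ra, the high-affinity IL-2 receptor chain, read 4.57 and 3.97. Its naive signal varied 2.6 log2 units over the 24 arrays, and against the median naive signal of all arrays its DMSO value was 3.41. Cysltr1, a receptor for cysteinyl leukotrienes, read 4.20 and 3.37. Il1rl1, the IL-33 receptor, was at least 11.1-fold higher with DMSO and at least 4.95-fold higher with 50 nM JQ1. Ccr4, a chemokine receptor of Th2 and skin-homing cells, read 3.08 and 2.50. Plcg1, a signalling phospholipase, was the lowest at -0.85 and -0.56. Ccr8 reached 0.58 and 0.48, and Ccr3 and Ptgdr2 (CRTH2) were not well above background. The 5 higher members were above the naive level in Th1 cells too. On the Th1 arrays, DMSO then 50 nM JQ1, Il2ra read 5.32 and 5.41, Anxa2 4.13 and 4.18, Cysltr1 3.77 and 3.26 and Ccr4 1.64 and 1.26. Il1rl1 read 2.42 on the Th1 DMSO array. Il2ra was called lower in Th2 than in Th1 cells, by -1.10 (limma, adjusted p = 0.00505), and Ccr4 higher by 1.34. With the 24 hr Th1 DMSO array in place of the 6 hr array they differed by -1.11 and 1.25. Neither passed the threshold there (limma, adjusted p = 0.0638 and 0.0773). The 4 of them measured in both channels read lower on the 50 nM JQ1 than on the DMSO array, from 0.12 for Anxa2 to 0.82 for Cysltr1.

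**Figure D2:**
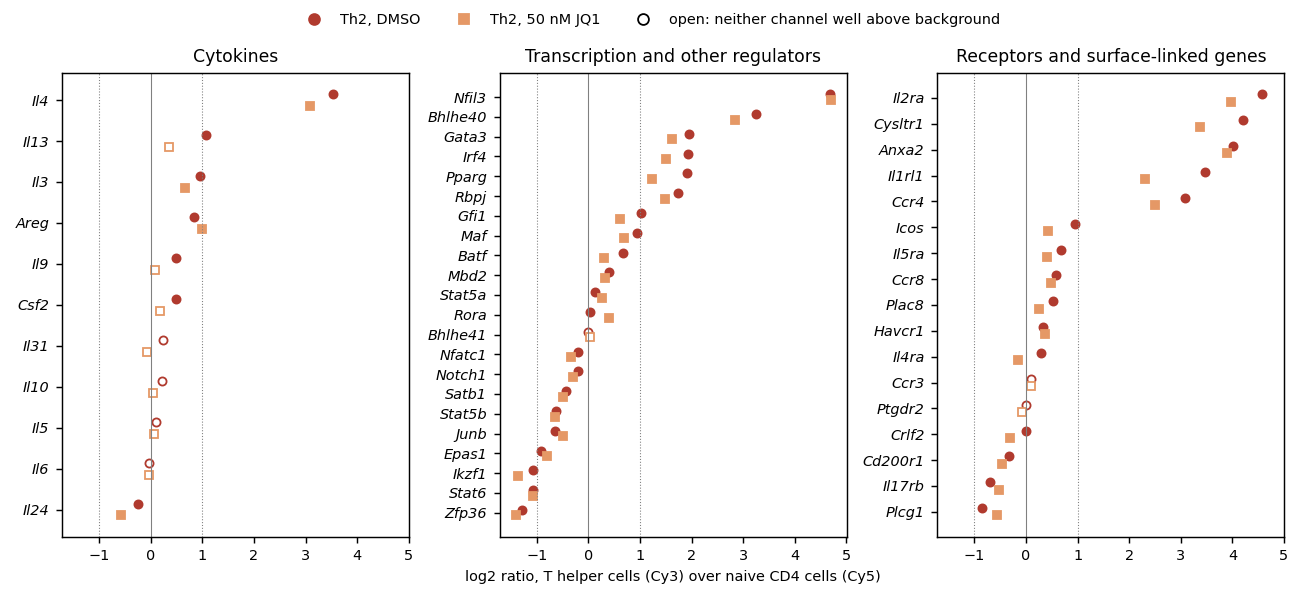
Log2 ratio over naive cells (x axis) of each member of the cytokine, regulator and receptor lists, with circles for the DMSO array and squares for the 50 nM JQ1 array. Open symbols had neither channel well above background, and dotted lines mark 2-fold. Il4 stands alone among the cytokines at 3.52 and 3.08.

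Genes of cell division made up the top of the list. Of all genes 10.8% were at least 2-fold higher on both arrays. Of 30 mitosis genes all 30 entered and 29 were at least 2-fold higher on both arrays, with medians of 4.48 and 4.27. Birc5 (survivin) read 6.56 and 6.48, Mki67, the gene of the proliferation antigen Ki-67, 6.51 and 6.38, and Nusap1, a spindle protein, 6.28 and 6.01. The exception was Cenpf at 0.60 and 0.53. Bub1, a kinase of the spindle checkpoint, was not well above background in naive cells and was at least 37.4-fold and at least 42.0-fold higher. Of 30 DNA replication genes 29 entered and 27 were at least 2-fold higher on both arrays, with a median of 2.50 on each. Rrm2, a subunit of ribonucleotide reductase, read 5.60 and 5.64 and Uhrf1, which maintains DNA methylation, 5.01 and 4.88. The lowest were Mcm2 at 0.90 and 1.06 and Tyms at 0.80 and 0.68. These medians were above 2 under every scaling tried.

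The promoters of the 3 mitosis genes with the highest ratios follow, 250 bases before the start and in the direction of the gene. Capitals mark TTTGAA, the cell cycle homology region, on either strand. Birc5 lies at chr11:117848987-117849236 (plus strand), Mki67 at chr7:135716380-135716629 (minus strand) and Nusap1 at chr2:119618048-119618297 (plus strand) of GRCm38.p6.
Birc5: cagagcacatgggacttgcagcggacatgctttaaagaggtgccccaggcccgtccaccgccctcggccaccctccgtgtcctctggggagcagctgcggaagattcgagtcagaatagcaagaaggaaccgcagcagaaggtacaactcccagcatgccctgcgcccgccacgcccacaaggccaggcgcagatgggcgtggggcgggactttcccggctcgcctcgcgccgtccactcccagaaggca
Mki67: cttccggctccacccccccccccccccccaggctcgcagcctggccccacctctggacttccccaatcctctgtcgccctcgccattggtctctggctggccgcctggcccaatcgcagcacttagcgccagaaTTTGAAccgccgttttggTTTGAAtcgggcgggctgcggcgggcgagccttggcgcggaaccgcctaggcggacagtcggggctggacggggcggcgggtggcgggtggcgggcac
Nusap1: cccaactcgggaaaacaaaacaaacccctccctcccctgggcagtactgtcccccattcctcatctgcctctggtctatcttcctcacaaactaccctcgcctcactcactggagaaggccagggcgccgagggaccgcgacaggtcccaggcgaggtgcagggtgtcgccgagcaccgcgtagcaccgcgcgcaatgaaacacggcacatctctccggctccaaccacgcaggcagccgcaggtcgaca
Mki67 held 2 matches, while these letters are not in the other windows. The element was in 7 of the 25 mitosis list promoters found in the table (28%) and in 16.3% of all promoters. TTTGGCGC or TTTCCCGC, forms of the E2F site, were in 5 of 24 replication list promoters (20.8%) and in 1.35% of all. No test was made of these shares.

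Ranked over all genes measured in both channels on both arrays, the 15 highest were mostly of this kind. Besides those named they held Ccna2 (cyclin A2), Aspm, Shcbp1, Cenpe, Sapcd2, Sgo1, Spag5, Spc25 and Kif20a, at DMSO values between 5.27 and 5.97. Dimmer probes of some named genes read far lower on the DMSO array, 0.23 for Sapcd2, 0.52 for Nuf2 and 0.27 for Il1rl1. The remaining genes were S100a6, a calcium-binding protein, at 6.27 and 5.62, and Ctla2b, related to cathepsin propeptides, at 5.50 and 5.29. Besides Bub1, the genes with the largest bounds were Neil3, Nuf2, Nek2 and Ckap2l, at least 18.0-fold to at least 27.0-fold higher with DMSO.

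Activation and memory genes were higher as well, 20 of 34 that entered at least 2-fold with DMSO and 1 lower, against 19 and 3 with 50 nM JQ1. Of all genes 12.5% were higher and 5.69% lower with DMSO, and 12.2% and 7.01% with 50 nM JQ1. Anxa1 read 5.25 with DMSO and was at least 39.0-fold higher with 50 nM JQ1. Also higher were Lgals3 (galectin-3) at 4.66 and 4.14, Socs2 at 4.29 and 4.27, and the filament protein Vim at 3.31 and 3.16. Ctla4, an inhibitory receptor, read 2.92 with DMSO and was at least 7.86-fold higher with 50 nM JQ1. Cd44 itself, on which the naive cells had been sorted as low, read 0.98 and 0.43, and its 4 probes read from 0.35 to 1.57 with DMSO. Lgals3 had a naive signal that varied 3.1 log2 units over the arrays, and its DMSO value was 3.83 against the median naive signal. The lowest was Cd69, an early activation antigen, at -3.00 and -3.07.

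Glycolysis genes had medians of 1.68 and 1.82, and 14 of 23 were at least 2-fold higher on both arrays, against 10.8% of all genes. Tpi1 read 4.10 and 4.17, the lactate transporter Slc16a3 4.04 and 4.07 and hexokinase Hk2 3.58 and 3.61. Eno3 was lower at -1.56 and -1.69. Cholesterol synthesis and respiratory chain genes lay closer to the bulk, with DMSO medians of 0.42 and 0.39. With median centring the respiratory chain median became -0.21, so its direction is not settled. In the cholesterol list Stard4 read 1.47 with DMSO, and in the respiratory chain Sdhd read 1.30 and Sdha -0.41. Of 54 ribosomal protein genes 4 were 2-fold lower on both arrays, near the share of all genes, 5.04%. The ribosomal median was -0.29 on both arrays, with DMSO values from Rps2 at 0.60 to Rps14 at -1.35. The ribosomal median read 0.07 with loess values shifted by the spike-ins and -1.25 with median centring, so it too has no settled direction.

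**Figure D3:**
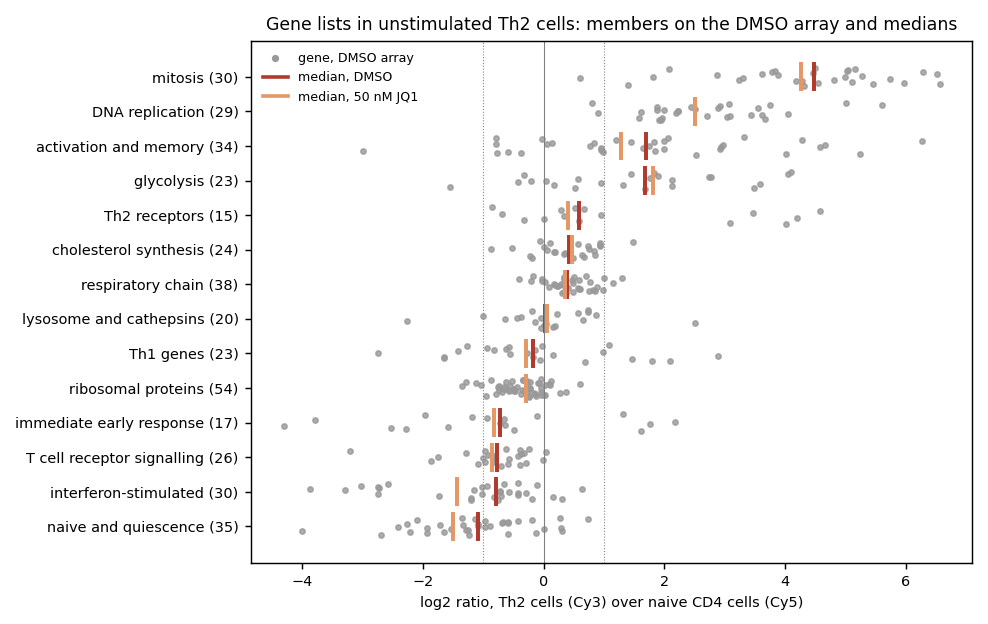
Each grey point is a list member's log2 ratio over naive cells on the DMSO array (x axis). Dark bars are list medians on the DMSO array and light bars those on the 50 nM JQ1 array, with the number of genes that entered in brackets. Mitosis and replication lie highest and the naive and quiescence list lowest.

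Naive and quiescence genes were lower. All 35 entered, 19 were at least 2-fold lower with DMSO and 25 with 50 nM JQ1, against 5.69% and 7.01% of all genes. None was 2-fold higher, and the list medians were -1.09 and -1.51. The chemokine receptor Ccr7 read -2.21 and -2.48. The transcription factor Tcf7 read -2.09 and -2.57, and Lef1 -1.72 and -2.02. Dapl1 was the lowest at -4.00 and -4.40, followed by Actn1 at -2.69 and -2.37 and Il6ra at -2.41 and -2.70. Il7r, the IL-7 receptor chain, read -0.97 and -1.80 and S1pr1 -0.68 and -1.29. Tob1, an antiproliferative gene, was the highest at 0.73 and 1.00. The list's median stayed below 0 under every scaling, at its nearest -0.58 with spike-in centring.

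Interferon-stimulated genes were lower for 13 of 30 with DMSO and for 21 with 50 nM JQ1, at medians of -0.79 and -1.44. Over all genes the lower shares were 5.69% and 7.01%. Oas2, Oas1a and Rtp4 read -3.88, -3.29 and -3.03 with DMSO and -4.36, -4.41 and -4.52 with 50 nM JQ1. The highest was Oas3 at 0.64 and 0.21. The second array was the lower for 29 of the 30 genes, against 56.4% of all genes that entered. Drug, slide and possibly treatment time differ between these arrays and cannot be told apart.

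Immediate early genes went both ways. Fos and Jun, subunits of AP-1, were among the lowest genes of the array at -4.30 and -4.22 and at -3.79 and -3.47. Egr1 read -2.53 and -2.16 and Nr4a1 -1.97 and -1.86. Above naive cells were Ier3, at least 4.54-fold with DMSO, Fosl2 at 1.76 and 1.61, and Nr4a2 at 1.32 and 1.31. Dimmer probes of Fosl2 and Nr4a2 read 0.05 and 0.36 with DMSO. In all, 7 of 17 were 2-fold lower and 4 were 2-fold higher on both arrays, against 5.04% and 10.8% of all genes.

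T cell receptor signalling genes were lower by a small amount for most members, 25 of 26 below 0 with DMSO, as were 45.3% of all genes that entered, at a median of -0.76. With DMSO 5 were past 2-fold lower, against 5.69% of all genes. With 50 nM JQ1 it was 11, against 7.01%, and the median was -0.86. Txk, a Tec family kinase, read -3.21 and -3.91, Cd6 -1.86 and -2.12, and the kinase Lck -1.75 and -2.24, while Themis read 0.04 and -0.16. Among lysosomal genes, with a median of 0.02, cathepsin H (Ctsh) read 2.51 and 2.31 and cathepsin S (Ctss) -2.26 and -2.82. Among chemokine receptors Ccr2 was at least 12.6-fold and at least 7.61-fold higher, while Gpr183 read -2.48 and -3.09 and Ccr9 -2.45 and -2.27.

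Of 17 cytotoxic granule genes 13 entered, with medians of -0.03 and -0.14. On both arrays 3 were at least 2-fold higher and 2 lower, against 10.8% and 5.04% of all genes. The 3 included Gzmb, whose DMSO value was 0.98 against the median naive signal of all arrays. The highest of the list was the granzyme Gzma at 3.48 and 3.09, against 6.22 and 5.90 in Th1 cells. The lowest was Ctsw (cathepsin W) at -2.83 and -3.08. Of 20 genes of the Th17, regulatory and follicular helper lineages 14 entered, at a DMSO median of 0.14. On both arrays 1 was at least 2-fold higher and 1 lower, near the shares of all genes, 10.8% and 5.04%. The higher was Lrrc32, which presents latent TGF-beta, at 2.17 and 2.11, and the lower Il6st (gp130) at -3.13 and -3.03. Il17a and Il17f, cytokines of Th17 cells, were not well above background in either channel.

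The 15 lowest genes measured in both channels were led by Dtx1, a regulator of Notch signalling, at -5.72 and -5.44. Slc16a5, a transporter of the monocarboxylate family, read -5.10 and -4.93, although its other probe read -0.70. Nsg2 read -4.65 and -4.96, Xkrx -4.28 and -4.24 and Prag1 -4.21 and -4.26. Atp1b1, a sodium pump subunit, read -4.01 and -3.56, and Hsd11b1, which activates glucocorticoids, -3.92 and -4.62. Apol7b, Adamts14, whose dimmer probe read -0.29, and Ifi208 completed the set with Fos, Jun, Dapl1, Oas2 and Oas1a. Genes above background in naive cells alone had small bounds, the largest for AW011738 at least 4.54-fold lower, followed by H3c15, Sardh, Lbp and Vwce. H3c15 belongs to a histone family of near-identical copies, so its probe may read several genes.

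The genes past 2-fold with DMSO that differed most on the second array were few. Podnl1 read 1.23 and -0.12 and H2bc4, a histone gene with close copies, -1.03 and 0.23. Cacna1s read 2.39 and 1.19 and Fut7, which builds selectin ligands, 4.33 and 3.23. In the other direction Plagl1 read 2.17 and 3.32 and Ccno 1.68 and 2.82. Other probes of Plagl1, Cacna1s and Fut7 read as low as -0.27, 0.54 and 1.96 on the DMSO array. Downward, Rtp4 and Oas1a were joined by Tnfrsf25 at -1.99 and -3.06 and Ly6c1 at -1.08 and -2.13.

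Unstimulated Th1 cells were the closest comparison, since they too were differentiated from naive cells in vitro and read against a naive reference of the same description. The difference of the log2 ratios was tested with limma over 4 arrays, DMSO and 50 nM JQ1 of each cell type, with 12405 genes and 2 residual degrees of freedom. At an adjusted p below 0.05, 1745 genes (14.1%) were higher in Th2 cells and 1738 (14%) lower. These counts hold genes that came in through 1 cell type alone. Of the 11681 above background in the T helper channel of all 4 arrays, 1629 were higher and 1599 lower. With the 24 hr Th1 DMSO array in place of the 6 hr array, 213 genes (1.72%) were higher and 274 (2.21%) lower. The time of the Th2 DMSO array is not known. That fit pools a 24 hr and a 6 hr Th1 array from different slides, so its spread within Th1 cells differs too. A lost call can go with a difference little changed, as for Il2ra at -1.10 and then -1.11. For Nr4a1 it went with a smaller one, -4.19 and then -2.95. Leaving out the Th1 DMSO array gave 1037 higher and 1156 lower, and without the Th2 DMSO or the Th1 50 nM JQ1 array 1127 and 1131 were higher. Leaving out the Th2 50 nM JQ1 array kept 1 slide, that of the Th2 DMSO array and both Th1 arrays, and gave 1464 higher and 1311 lower. Each of these fits left 1 cell type with a single array, which was assumed to vary like the 2 arrays of the other. The even split rests on the scaling, with 425 higher and 832 lower with spike-in centring and 423 and 1137 with the spike-in shift. With treatment as a block 2913 were higher and 2651 lower. Of the 1353 genes past 2-fold above naive cells on both Th2 arrays, 268 were called above and 253 below Th1 cells.

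Of 30 mitosis genes 1 was called higher in Th2 than in Th1 cells and none lower. Of the 29 replication genes tested, 8 were called lower and none higher. Over all genes 14.1% were called higher and 14% lower. With the 24 hr Th1 DMSO array no gene of either list was called. Of all genes only 1.72% and 2.21% were called there, so few calls would fall in lists of this size. Birc5 differed by 0.22 ± 0.12 (SE), which did not pass the threshold (limma, adjusted p = 0.201).

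Of the 23 Th1 genes that entered on the Th2 arrays 22 were called lower in Th2 than in Th1 cells, and 14 with the 24 hr Th1 DMSO array. The other 4 tested, Ifng among them, came in through their Th1 signal and are not counted, since such genes had to be lower. Tbx21 (T-bet), the factor that specifies Th1 cells, read -0.02 and -0.05 in Th2 cells against 5.41 and 5.16 in Th1 cells. Ifng read 0.65 and 0.29 against 7.15 and 6.95. Tbx21 and Ifng were above background in Th2 cells on the DMSO array alone, so their values with 50 nM JQ1 are limited by the background. The receptor Il18r1 was below the naive level in Th2 cells at -2.74 and -3.37 and above it in Th1 cells at 1.96 and 1.37. Cxcr3 read -0.06 and -0.48 against 4.04 and 3.41. The exception was Ifngr2, a chain of the interferon gamma receptor, which was higher in Th2 cells by 1.35. Against naive cells the Th1 list had DMSO and JQ1 medians of -0.17 and -0.29 over the 23 genes that entered. Its sign turned with spike-in centring, to 0.56, and with the spike-in shift, to 0.19. Gzmb read 2.89 and 2.34, but its naive signal varied 5.4 log2 units over the arrays, and against the median naive signal the DMSO value was 0.98.

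Of 35 naive and quiescence genes 14 were called higher in Th2 than in Th1 cells and 5 lower, against 5 and 1 with the 24 hr Th1 DMSO array. Over all genes 14.1% were called higher and 14% lower, or 1.72% and 2.21% with the 24 hr array, so the 5 lower are near the share of all genes. Pdlim4 had the largest upward difference of the genes ranked, reading -0.58 and -1.64 in Th2 cells against -6.49 on both Th1 arrays. Cd55, S1pr1, Pik3ip1 and Il6ra were higher in Th2 cells by 1.92, 1.94, 1.85 and 1.79. Ccr7 and Ly6c1 were lower, by -2.05 and -2.81. The calls of S1pr1 and Ccr7 were lost with the 24 hr array (limma, adjusted p = 0.105 and 0.135). Of the 17 immediate early genes that entered on the Th2 arrays 16 were called lower in Th2 cells, Nr4a1 by -4.19, Nr4a2 by -3.73, Egr1 by -3.18 and Jun by -3.10. On the Th1 arrays of 6 hr and 24 hr with DMSO, Nr4a1 read 2.26 and -0.22, Nr4a2 5.05 and 2.84, Egr1 0.44 and -1.54 and Jun -0.56 and -1.03. With the 24 hr array in the fit 2 of the 17 were called lower, and of these 4 genes only Jun, by -2.86 (limma, adjusted p = 0.00785). Activation genes that entered were lower for 18 of 33 and higher for 3, and glycolysis genes lower for 15 of 23 and higher for 3. With the 24 hr array 6 of each list were lower and none higher.

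**Figure D4:**
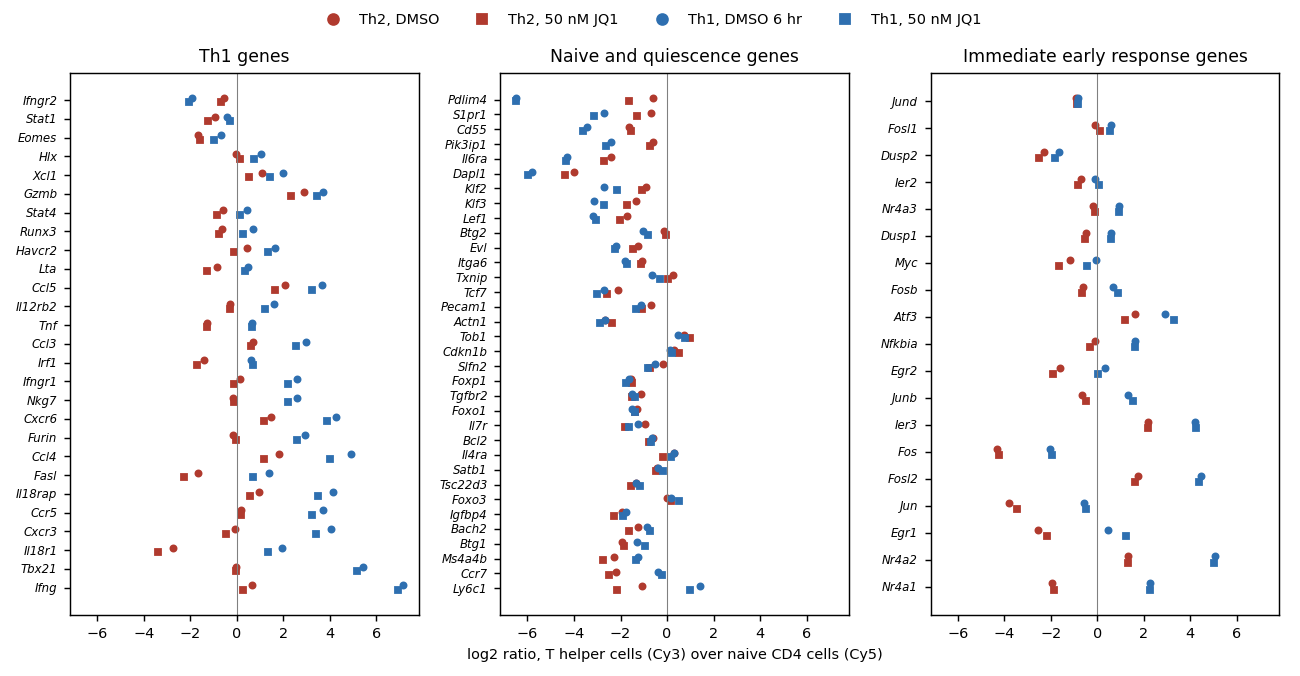
Log2 ratio over naive cells (x axis) for Th1, naive and immediate early genes, with red for Th2 and blue for Th1 cells, circles for DMSO and squares for 50 nM JQ1. Genes are ordered by the difference of the cell types, and 1 naive gene is not drawn. Ifng at 7.15 and Tbx21 at 5.41 with DMSO lie far to the right in Th1 cells.

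Of genes above background in the T helper channel on all 4 arrays, those most above Th1 cells after Pdlim4 were Slpi, a protease inhibitor, by 4.99, and Tspan32 by 3.04. Ptgir, the prostacyclin receptor, followed by 3.02, Ecm1 by 2.93, Jchain by 2.92, Tdrp by 2.82, Bmp7 by 2.79, Itgb3 by 2.77 and P2ry1 by 2.54. Jchain, which links immunoglobulin chains, read 3.22 and 3.06 against naive cells, and 4.40 with DMSO against the median naive signal. With the 24 hr Th1 DMSO array Tspan32 and Ptgir differed by 2.34 and 2.71 and missed the threshold (limma, adjusted p = 0.0609 and 0.0512). Most below Th1 cells were Plac8 by -6.67, Il18r1 by -4.72, the guanylate-binding protein Gbp5 by -4.57, AA467197 by -4.23, Nr4a1 by -4.19 and Cxcr1 by -4.16. Sytl3, Cxcr3, Cd69 and Lilrb4a followed, by -4.15, -3.99, -3.91 and -3.90. Plac8 was on the receptor list yet read only 0.52 and 0.25 in Th2 cells.

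Markers of other cell types were read on the same arrays. Of 10 B cell genes 8 entered and 3 were at least 2-fold higher on both, against 10.8% of all genes. Among the 3 were Ms4a1 (CD20) at 4.03 and 3.78 and Cd79b at 2.97 and 2.73. Cd79a read 0.79 and 0.69, and Pax5 was above background in the DMSO Th2 channel alone. The summed B cell signal was 12.47 and 12.19 log2 units in the Th2 channel, and 10.49 and 10.43 in the naive channel, DMSO array first. Ms4a1, Cd79b and Cd79a were also called higher in Th2 than in Th1 cells, as was Jchain, and of these Cd79a lost its call with the 24 hr Th1 DMSO array (limma, adjusted p = 0.0842). Their part in the results was not tested. None of 5 NK markers was above background, nor was Cd8a, while Cd8b1 was above it in both channels at -1.26 and -1.37. Of the regulatory T cell genes Lrrc32, given above, was higher and Foxp3 read -0.60 and -0.57. Of 9 mast cell and basophil genes 7 were below background in every channel, among them Fcer1a, Ms4a2, Cpa3 and Mcpt8. None of the myeloid and erythroid genes that entered (5 of 12 and 3 of 7) was past 2-fold, with DMSO medians of -0.48 and -0.70. In whole-population RNA, a change in the share of a cell type and a change in RNA per cell cannot be told apart.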

How the data were processed

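RNA was measured on dual-colour Agilent SurePrint G3 mouse arrays. The deposited scanner files held spot and background median intensity in both channels, written by Agilent Feature Extraction 10.7.1.1 on an mm9 grid per the file headers, and the software's log10 ratio of Cy5 over Cy3. A further table deposited by the authors gave log2 ratios for 34710 of 55681 probes, whose normalization is not given in the sources used here. Its values tracked the loess values computed here, and it was used only as an alternative.

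Intensities were background-corrected by normexp (offset 50) and normalized within arrays by loess in limma 3.58.1 under R 4.3.3. Control spots and spots flagged as outliers (245 on the DMSO and 299 on the 50 nM JQ1 array) were left out, and no spot was saturated. Repeat spots of a probe were averaged and had a median SD of 0.09 (DMSO) and 0.10 (50 nM JQ1). Symbols came from a RefSeq table of GRCm38.p6, which named 26437 probes. The Th2 channel was well above background for 52.6% and 50.9% of probes. Precision is limited by having a single array of each kind. The DMSO values have no test, and the limma fits took cells of different treatment as if they were replicates, so their p-values measure only the spread between these arrays. Per channel levels behind the bounds came from loess followed by Aquantile scaling, and dye bias in them was not tested.

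Named genes were the 15 highest and 15 lowest, the 5 largest bounds, the 5 that differed most between the arrays, the 10 most above and below Th1 cells, the Th2, naive and Th1 lists, and the extremes of the other lists, of which those of the marker lists are given only in part. A few list members are counted in their lists and not reported here by name. Members and lists were chosen with earlier results of these data known. On simulated data the fit of both arrays over 12552 genes recovered 79.2% of 4-fold and 41.5% of 2-fold changes. The Th2 to Th1 fit over 12405 genes recovered 93.3% and 66.3%. Few genes were changed in the simulations, and spreads were shuffled between genes. The fits of the data called 8616 and 3483 genes, so the recovered shares do not describe them. All 2329 genes with a mean past 2-fold over both arrays were called. The alternatives were other background corrections, scalings, probe and filter choices, fold thresholds and sets of arrays.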

Additional observations from a re-analysis of the deposited data

Results flagged for a closer look

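For 5 genes the effect against naive cells ran in opposite directions in the cell types, past 2-fold on both arrays of each, and the difference itself was called (limma, adjusted p below 0.05). Il18r1 was lower in Th2 than in Th1 cells by -4.72 (SE 0.25), Nr4a1 by -4.19 (SE 0.11), Ly6c1 by -2.81 (SE 0.31) and Igtp, an interferon-inducible GTPase, by -2.54 (SE 0.18). Slpi was higher in Th2 cells by 4.99 (SE 0.15). It read 2.84 and 2.87 in Th2 cells and -1.93 and -2.33 in Th1 cells. On the 24 hr Th1 DMSO array Il18r1, Ly6c1 and Igtp read 2.68, 1.78 and 1.82 and Slpi -1.12. Nr4a1 read -0.22 there, so its opposite direction was not seen on that array, and with it in place of the 6 hr array its difference was not called (limma, adjusted p = 0.104). The treatment time of the Th2 DMSO array is not known. For Il18r1 a dimmer probe read -0.54 on the Th2 DMSO array, against -2.74 for the probe used.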

How the results depend on the processing

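Each setting changed 1 choice, except that the software's log ratio and the deposited table replace background correction and normalization together. Each pair gives genes higher and lower unless stated. Past 2-fold with DMSO, counts were 2919 and 1815 at 1.5-fold, 582 and 116 at 4-fold, 4827 and 218 with spike-in centring, and 2662 and 354 with the spike-in shift. The lower count was 1934 with median centring and 1448 with the software's log ratio. The shares repeated on the second array, upward and downward, were 81.02% and 82.12% with the deposited table, 78.7% and 96.48% with median centring, 82.64% and 83.35% with the median reference, and 89.22% and 83.7% with the software's log ratio. With the arrays exchanged they were 88.32% and 71.82%. Downward alone the share was 93.97% at 4-fold, 85.65% with offset 0, 96.33% with spike-in centring and 93.22% with the spike-in shift. The naive list median was -1.506 on the JQ1 array, -0.577 with spike-in centring, -0.734 with the spike-in shift and -1.683 with median centring. The Th1 list median was -0.573 with genes above background in both channels, -0.445 with the deposited table, -0.546 with median centring, -0.464 with the median reference, -0.496 with the software's log ratio, 0.560 with spike-in centring and 0.187 with the spike-in shift. The Th2 receptor median was 0.399 on the JQ1 array, 0.398 with the mean of probes, 0.379 with the median reference, 0.859 without background correction, 1.211 with offset 0, 1.165 with the software's log ratio, 1.539 with spike-in centring and 0.942 with the spike-in shift. Calls over both arrays were 2379 and 6752 with values centred on the median, 9934 and 1065 with spike-in centring, and 7730 and 1861 with the spike-in shift. Calls between Th2 and Th1 cells were 827 and 835 with the 24 hr Th1 array added, 213 and 274 with it in place of the 6 hr array, 1097 and 1093 with the software's log ratio, 425 and 832 with spike-in centring, 423 and 1137 with the spike-in shift, and 2913 and 2651 with treatment as a block. Leaving out each of the 4 arrays gave 1037 to 1464 and 1156 to 1321. Podnl1 and H2bc4 turned sign on the JQ1 array, at -0.118 and 0.227. The causes were not tested. The labels carry no replicate numbers, so treatment was the one pairing of the Th2 and Th1 arrays that could be fitted. A fit of 1 array alone had no residual degree of freedom and was not run. Sign changes were counted over the 102 named genes past 2-fold with DMSO, in 1324 recomputed values, and those 2 were found. Genes nearer 0 were not counted. Many of the 102 were chosen as extremes, so few could turn, and those 2 were named because they differed most between the arrays. The count is thus no measure of how stable the directions are.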
